A study of Caenorhabditis elegans with 12 samples.

Results

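The genes described here are the potassium channel genes of the nematode Caenorhabditis elegans, chosen by gene name: every twk, kvs, kqt, irk, shl, shw, shk and kcnl gene, together with slo-1, slo-2, unc-103, egl-2, egl-36, egl-23, sup-9, unc-58 and exp-2. The rule found 72 of the 21982 genes in the table. The largest class was the TWK class of tandem pore domain channels with 47 genes. The others were 11 voltage-gated (Kv) genes, 4 small-conductance calcium-activated genes, 3 KCNQ genes, 3 inward rectifier genes, 2 EAG and ERG genes and 2 Slo genes.

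Potassium channels let potassium leave the cell, which holds the resting membrane potential of neurons and muscle and ends each period of depolarization. Channels of the TWK class are mostly open at rest and set the leak current, voltage-gated channels of the Kv, EAG, ERG and KCNQ kinds open on depolarization, and Slo and small-conductance channels open when calcium rises. In the worm, mutations in these genes are known for changes in locomotion, egg laying, pharyngeal pumping and the defecation rhythm.

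Whole worms of strain KH2235, which all carry a splicing reporter made from a minigene of ret-1, were separated on day 6 by fluorescence. The Green group held worms with mostly GFP and the Red group worms with mostly mCherry, with 6 libraries each, paired over 6 batches. Both groups therefore shared strain, reporter and age, and differed in the colour for which they were picked. The sources used here give neither the promoter of the reporter, the number of worms behind a library nor whether cultures were separate, so the p-values cover a spread that may in part be technical.

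The values are normalized counts, that is, the counts of a library divided by its size factor. Recovered totals ran from 30185155 to 87141961 reads in Green and from 34959069 to 81537026 reads in Red libraries. In both groups replicate 6 had the highest total, against at most 56195864 in the other Green and 49089085 in the other Red libraries. The potassium channel genes together took 118 to 146 reads per 1000000 in Green and 130 to 221 in Red. They were low genes: the 64 that reached a mean of at least 10 normalized counts over the 12 libraries, and were tested, had a median of 69.3, against 426 for all 14618 tested genes. In the second principal component Red replicate 6 stood apart from the other libraries, so counts are also given without it. All 7 marker lists of worm tissues, from neurons to germline, had every gene above 0 in every library.

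Of the 64 tested potassium channel genes, 19 were lower and 5 were higher in Green, at an adjusted p under 0.05 (limma on log2(normalized count + 1), Benjamini-Hochberg over all tested genes), and 40 did not pass. The genes that fell included kqt-1, slo-1, egl-2, exp-2, unc-58, twk-7 and all 4 small-conductance genes, and those that rose were kqt-2, twk-5, twk-18, twk-42 and twk-34. The 19 lower genes were 29.7% of the tested members, beside 20.1% of all tested genes, and the 5 higher genes were 7.81%, beside 19%. The median log2 fold of the members, Green over Red, was -0.34, beside 0.04 over all tested genes, and 49 of the 64 folds were below 0.

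Tested genes of like level were also called lower more often than higher in Green. The tested members had means between 12.2 and 410.0 normalized counts, and of the 6845 tested genes in that range 29.6% were called lower and 8.36% higher, with a median log2 fold of -0.27; this range was chosen after the results were seen. The share of members called in either direction was thus near that of genes of like level. The median of the members also moved with the scaling, to -0.05 with 9 lower and 7 higher calls under quantile normalization and to -0.21 with 13 lower and 6 higher under median centring, which moved the median of all tested genes to 0.16. The results below therefore rest on single genes.

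**Figure D1:**
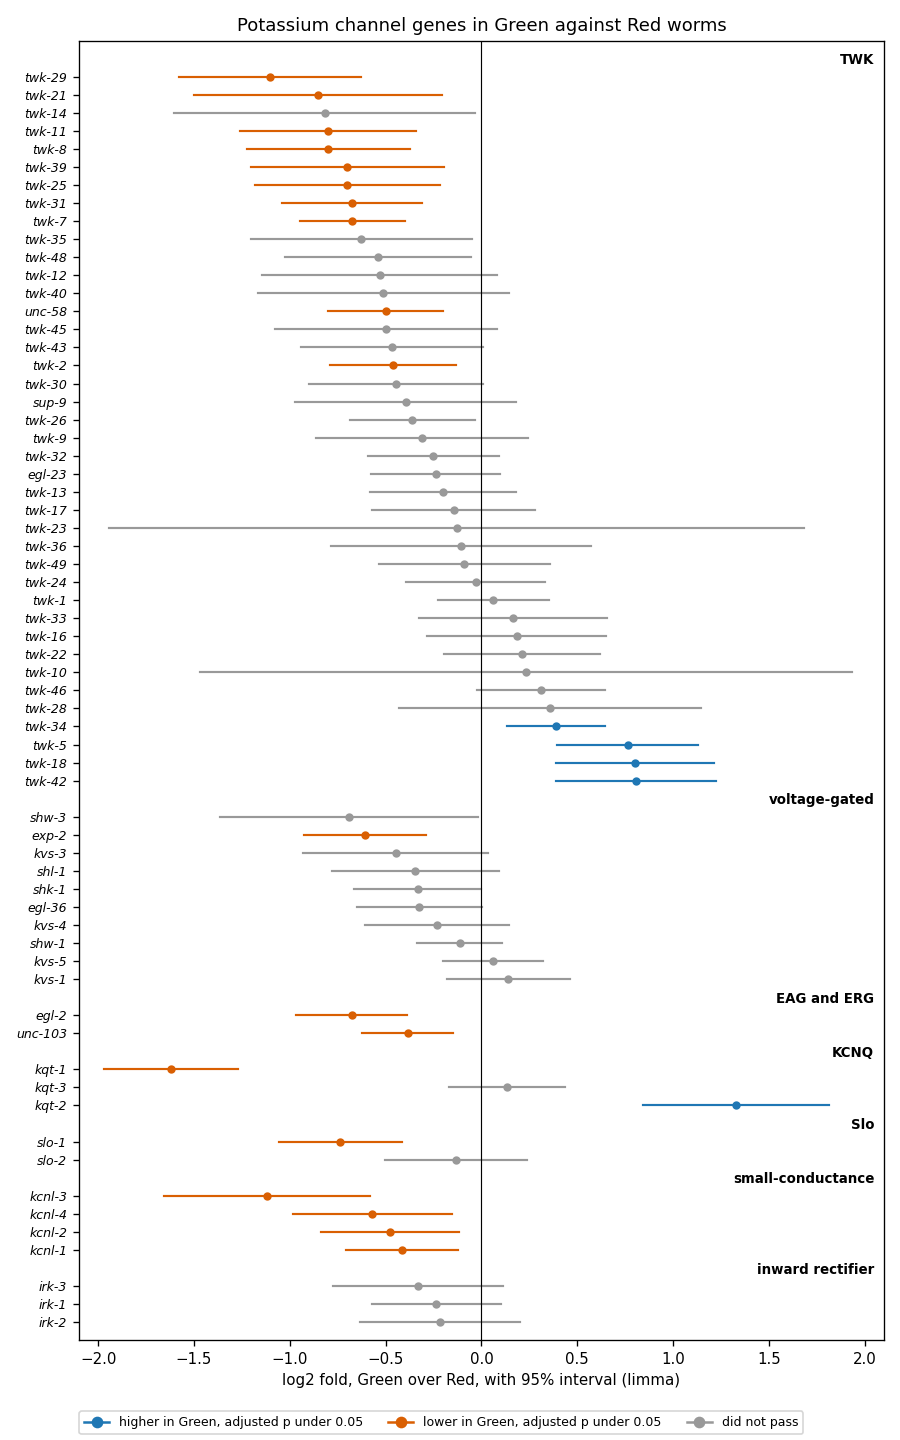
Log2 fold, Green over Red, of the 64 tested potassium channel genes by class (horizontal axis), with the 95% interval from limma as a line. The 19 genes lower in Green lie left of 0, the 5 higher ones right of it, and the extremes are kqt-1 at -1.62 and kqt-2 at 1.33.

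The KCNQ genes held both the lowest and the highest fold of all tested members. kqt-1 (X, 6619012 to 6627995, plus strand, WBcel235), a KCNQ channel expressed in the pharynx among other sites, had normalized counts with a lowest, median and highest value of 98.2, 110 and 156 in Green, against 277, 389 and 456 in Red. Every Green library lay below every Red library, in all 6 batches. The log2 fold was -1.62 (SE 0.16, adjusted p = 2.77e-05 in limma).

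kqt-2 (X, 8243131 to 8246369, minus strand), a KCNQ channel of the intestine, had 126, 188 and 219 in Green, against 40.2, 76.3 and 109 in Red. Again the groups did not overlap, now with Green above. Its log2 fold was 1.33 (SE 0.23, adjusted p = 0.000615 in limma). kqt-3, which is also expressed in the intestine, had 132, 146 and 162 in Green and 102.9, 138 and 161 in Red, overlapping groups with a log2 fold of 0.14 (95% interval -0.17 to 0.44, adjusted p = 0.46 in limma).

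The number of kqt-1 reads per kqt-2 read, which the size factor of a library cannot move, was 0.472 to 1.13 in Green and 3.52 to 9.41 in Red libraries. As each gene separated the groups, in opposite directions, their ratio had to separate them too and is no further support. The exons of kqt-1 share 371 bases, 13.7% of their length, with exons of clec-266 on the opposite strand. clec-266 is a far more abundant gene, with a mean of 9881 normalized counts, and it too was lower in Green, by a log2 fold of -2.03 (adjusted p = 5.59e-05 in limma). The sources used here do not state whether strand was used in counting, and the part of clec-266 reads in the kqt-1 values was not tested. No exon overlap was found for kqt-2.

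Of the 6 calcium-activated channel genes, 5 were lower in Green and slo-2 did not pass. Of all tested genes 20.1% were lower, and of those in the range of mean level of the members 29.6%. Among the 5, the calls of kcnl-1, kcnl-2 and kcnl-4 were near the threshold. slo-1 (V, 18492261 to 18508212), the large-conductance BK channel of neurons and muscle that limits transmitter release, had 158, 210 and 231 in Green, against 251, 336 and 431 in Red. The groups did not overlap, and the log2 fold was -0.74 (SE 0.15, adjusted p = 0.0020 in limma). slo-2, its relative in the Slo class, had 229, 318 and 340 in Green and 201, 345 and 437 in Red. These ranges overlapped, and its log2 fold was -0.13 (95% interval -0.50 to 0.24, adjusted p = 0.56 in limma). The difference between slo-1 and slo-2 was not tested.

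All 4 small-conductance genes were lower in Green, with a median log2 fold of -0.52. The shares called lower were 20.1% of all tested genes and 29.6% of those in the range of mean level of the members. kcnl-3 (X, 5386858 to 5394528) had 20.0, 30.8 and 51.6 in Green, against 47.1, 74.8 and 105 in Red. Only the highest Green library reached into the Red range, and the log2 fold was -1.12 (SE 0.25, adjusted p = 0.0037 in limma). kcnl-3 shares 51 exon bases with C03F11.2 on the opposite strand, a gene with a mean of 17.1 normalized counts and a log2 fold of -2.22. kcnl-1 had 128, 129 and 176 in Green, against 158, 181 and 235 in Red, and a log2 fold of -0.41 (adjusted p = 0.028 in limma). kcnl-2, known for a role in egg laying, had a log2 fold of -0.47 (adjusted p = 0.037 in limma) and kcnl-4 one of -0.57 (adjusted p = 0.032 in limma).

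The calls of kcnl-1, kcnl-2 and kcnl-4 were near the threshold. The call of kcnl-1 was lost without any 1 of Green replicates 2, 3, 5 and 6 and Red replicate 2, that of kcnl-2 without any 1 of Green replicates 1, 3, 5 and 6 and Red replicates 2, 4 and 5, and that of kcnl-4 without any 1 of Green replicates 3, 4, 5 and 6 and Red replicates 2, 4 and 5. None of the 3 passed under quantile normalization or median centring, where the folds stayed below 0. Without batch 6, kcnl-1 did not pass (adjusted p = 0.059 in limma).

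**Figure D2:**
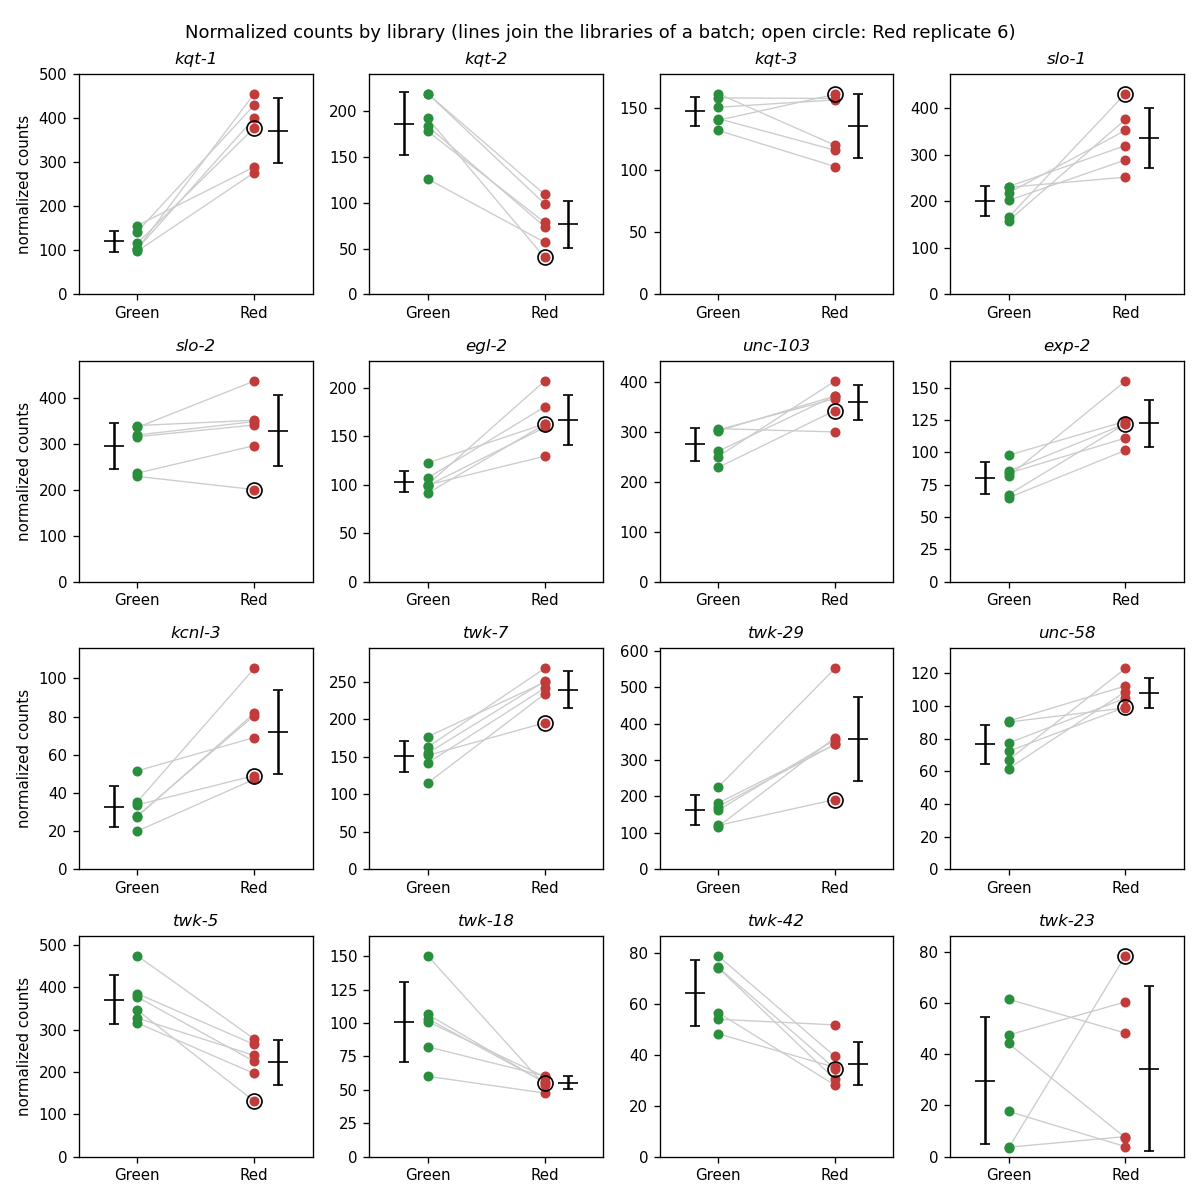
Normalized counts (vertical axis, from 0) of 16 potassium channel genes in the 6 Green and 6 Red libraries, with lines joining the libraries of a batch, bars for the mean and SD and an open circle around Red replicate 6. kqt-1 lies lower in every Green library (98.2 to 156) than in any Red one (277 to 456), while kqt-2 and twk-5 lie higher in every Green library.

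Both EAG and ERG genes fell in Green, beside 20.1% of all tested genes and 29.6% of those in the range of mean level of the members. egl-2 (V, 1289373 to 1299332), the EAG channel, had 91.3, 100 and 122 in Green, against 129, 162 and 207 in Red. The groups did not overlap, and the log2 fold was -0.68 (SE 0.14, adjusted p = 0.0018 in limma). unc-103 (III, 4115385 to 4147278), the ERG channel of vulval and other muscles, had 229, 281 and 306 in Green, against 300, 369 and 402 in Red. Here 1 Red library fell within the Green range, the log2 fold was -0.38 (SE 0.11, adjusted p = 0.015 in limma), and the call did not hold under quantile normalization or median centring.

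Among the 10 tested voltage-gated genes, 1 was lower, none was higher and the median log2 fold was -0.33. Beside this stood 20.1% lower and 19% higher of all tested genes, and 29.6% and 8.36% in the range of mean level of the members. At an unadjusted p under 0.05 there were 3 lower and 0 higher, and edgeR and DESeq2 each called 1 lower and 0 higher. exp-2 (V, 6131400 to 6143970), the Kv channel that ends the action potential of pharyngeal muscle, had 64.9, 82.7 and 97.8 in Green, against 102, 122 and 155 in Red. No Green library reached the Red range, and the log2 fold was -0.61 (SE 0.15, adjusted p = 0.0062 in limma), or -0.37 under quantile normalization. exp-2 was the called gene of this class.

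The Kv channels of body-wall muscle and neurons did not pass. shk-1, a Shaker-type channel, had 105, 153 and 174 in Green and 132, 195 and 221 in Red, with a log2 fold of -0.33 (adjusted p = 0.10 in limma). shl-1, a Kv4 channel, had 46.6, 53.7 and 55.4 in Green and 38.4, 78.3 and 86.3 in Red, with a log2 fold of -0.35 (adjusted p = 0.19 in limma). In both genes the ranges overlapped. Without Red replicate 6, whose shl-1 value was the lowest of all 12, the log2 fold was -0.43 for shk-1 and -0.50 for shl-1, with adjusted p = 0.015 and 0.016 in limma.

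egl-36, a Shaw-type channel known for its role in egg laying, had 50.7, 57.4 and 75.4 in Green and 65.3, 71.4 and 88.0 in Red, and a log2 fold of -0.32 (adjusted p = 0.10 in limma). kvs-1, a channel of sensory neurons, had 71.9, 83.9 and 100 in Green and 59.2, 79.4 and 89.2 in Red, and a log2 fold of 0.14 (95% interval -0.18 to 0.46, adjusted p = 0.47 in limma). Both pairs of ranges overlapped.

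The inward rectifiers, which carry potassium best near the resting potential, gave no call in the fit of all 12 libraries. irk-1, which acts in the egg-laying motor neurons, had 49.5, 65.7 and 81.5 in Green and 61.7, 79.2 and 87.5 in Red, with a log2 fold of -0.24 (adjusted p = 0.25 in limma). The log2 folds of irk-2 and irk-3 were -0.22 and -0.33. None of the 3 had an unadjusted p under 0.05 in limma, and edgeR and DESeq2 called 0 of them. Without Red replicate 6, whose irk-3 value of 58.5 was the lowest of all 12, irk-3 was called lower. Its log2 fold was then -0.52 (adjusted p = 0.0077 in limma).

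The TWK class, with 40 of its 47 genes tested, had 10 lower and 4 higher genes and a median log2 fold of -0.33. Among the 6845 tested genes in the range of mean level of the members, 29.6% were lower and 8.36% higher. twk-7 (III, 8634067 to 8643739), whose loss is known to speed locomotion, had 115, 153 and 176 in Green, against 195, 245 and 267 in Red. No library of one group lay in the range of the other, and the log2 fold was -0.67 (SE 0.13, adjusted p = 0.0013 in limma). twk-29 (I, 9463751 to 9468898) had 117, 167 and 225 in Green, against 191, 349 and 551 in Red, overlapping through Red replicate 6, with a log2 fold of -1.10 (SE 0.22, adjusted p = 0.0019 in limma). unc-58, a channel whose gain-of-function alleles disturb motility, had 61.6, 74.8 and 90.7 in Green, against 98.9, 107 and 123 in Red, with separate groups and a log2 fold of -0.50 (adjusted p = 0.013 in limma). Under quantile normalization its log2 fold was -0.26 and it did not pass (adjusted p = 0.14 in limma).

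The other 7 lower TWK genes had log2 folds from -0.46 to -0.85. twk-8, twk-31 and twk-11 had log2 folds of -0.80, -0.68 and -0.80 (adjusted p = 0.0069, 0.0073 and 0.010 in limma). twk-25, twk-2, twk-39 and twk-21 had log2 folds of -0.70, -0.46, -0.70 and -0.85 (adjusted p = 0.025, 0.029, 0.029 and 0.038 in limma), and each of these 4 calls was lost on leaving out some single libraries: Green 2 or 3 or Red 2 or 4 for twk-25, Green 2 or 6 or Red 2, 4 or 5 for twk-2, Green 3 or 6 or Red 1, 2 or 4 for twk-39, and Green 3, 4, 5 or 6 or Red 1, 4, 5 or 6 for twk-21. Under quantile normalization twk-2, twk-11, twk-21, twk-25 and twk-39 did not pass, and under median centring twk-2 and twk-21 did not. Without batch 6, twk-2, twk-39 and twk-21 did not pass (adjusted p = 0.069, 0.070 and 0.087 in limma). In all 7 genes the ranges of the groups overlapped.

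Of the higher TWK genes, twk-5 (II, 11483215 to 11485300) had 316, 362 and 474 in Green, against 131, 232 and 278 in Red. All Green libraries lay above all Red ones, and the log2 fold was 0.76 (SE 0.17, adjusted p = 0.0038 in limma). twk-18 (X, 8988128 to 8991975), which encodes a leak channel of body-wall muscle, had 60.1, 102 and 150 in Green, against 47.6, 55.5 and 60.4 in Red, so the lowest Green and the highest Red library were almost level. Its log2 fold was 0.80 (SE 0.19, adjusted p = 0.0057 in limma).

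twk-42 had 48.3, 65.4 and 78.9 in Green, against 28.1, 34.8 and 51.8 in Red, and a log2 fold of 0.80 (adjusted p = 0.0059 in limma). twk-34 had 139, 179 and 186 in Green, against 115, 131 and 143 in Red, and a log2 fold of 0.39 (adjusted p = 0.020 in limma), or 0.61 under quantile normalization. In both, 1 or more libraries of a group lay within the range of the other. The 5 genes higher in Green kept that call in each of the 12 fits without 1 library and in every other setting in which they were fitted.

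Channels with better known roles were among the 26 TWK genes that did not pass. sup-9, which acts in muscle together with unc-93 and sup-10, had 13.8, 27.2 and 36.6 in Green and 20.6, 36.9 and 51.1 in Red, and a log2 fold of -0.40 (adjusted p = 0.26 in limma). egl-23, known for its role in egg laying, had 91.6, 127 and 168 in Green and 117, 152 and 174 in Red, and a log2 fold of -0.24 (adjusted p = 0.24 in limma). Both pairs of ranges overlapped. The partners unc-93 and sup-10 did not pass either, with log2 folds of 0.11 and 0.25.

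twk-23 and twk-10 varied most between libraries and were picked after their values were seen. twk-23 ran from 3.26 to 61.6 in Green and from 3.90 to 78.6 in Red, with a log2 fold of -0.13 (SE 0.85, adjusted p = 0.92 in limma). twk-10 ran from 1.66 to 49.5 in Green and from 2.52 to 32.7 in Red, with a log2 fold of 0.23 (SE 0.80, adjusted p = 0.83 in limma). These spreads were far wider than the difference between the groups.

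**Figure D3:**
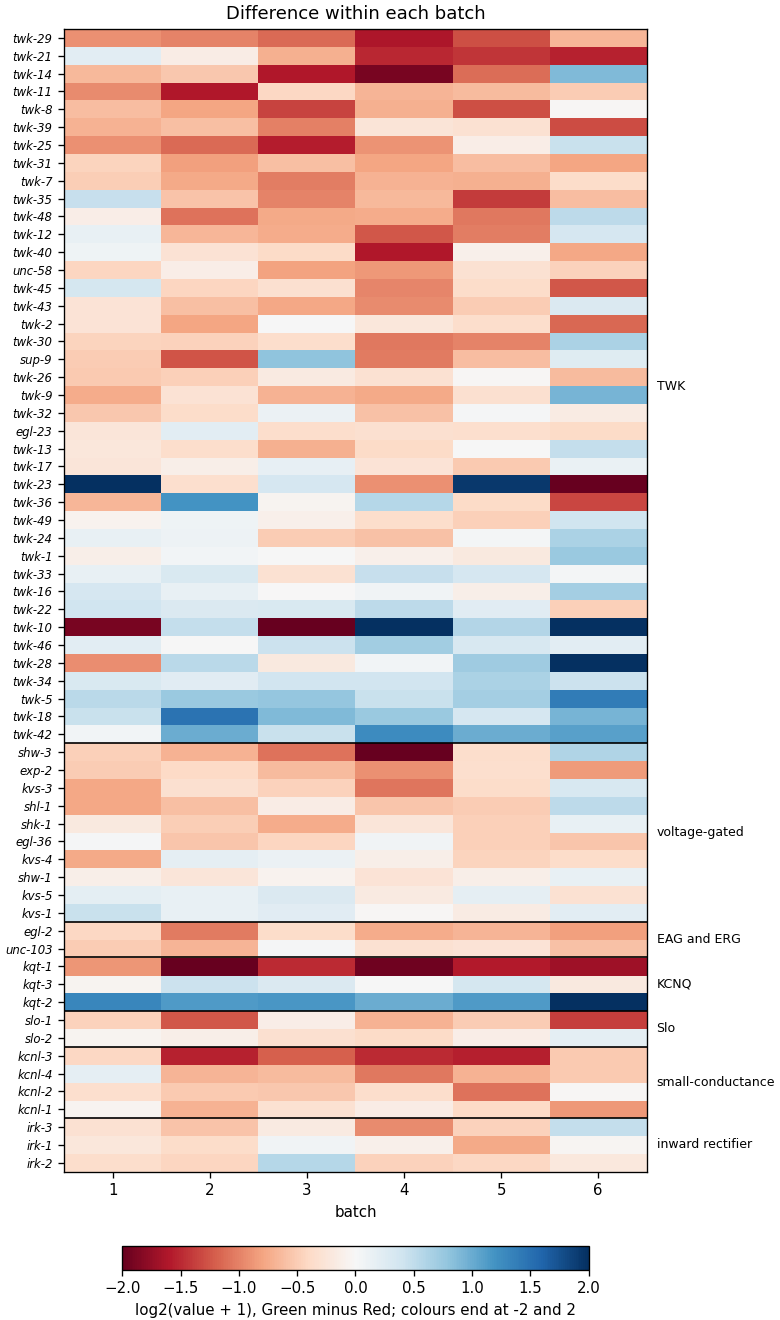
Difference in log2(normalized count + 1), Green minus Red, of each tested potassium channel gene (rows, by class) in each of the 6 batches (columns), red for lower and blue for higher in Green, with colours ending at -2 and 2. kqt-1 is red and kqt-2 blue in all 6 columns, and batch 6 shows the most blue, with a median of -0.03 against -0.26 to -0.42 in the other batches.

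Within batches, 44, 44, 44, 50, 48 and 33 of the 64 tested members were lower in Green, in batches 1 to 6. The median difference in log2(normalized count + 1), Green minus Red, was -0.26, -0.39, -0.32, -0.42, -0.36 and -0.03. Over all tested genes the medians of the batches lay between -0.02 and 0.06. Lower in all 6 batches were 15 members, or 23.4%, beside 20.2% of all tested genes and 28.6% of those in the range of mean level of the members.

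Groups that did not overlap were found for 6 members with Green lower (kqt-1, slo-1, egl-2, exp-2, twk-7 and unc-58) and 2 with Green higher (kqt-2 and twk-5). These were 9.38% and 3.12% of the tested members, beside 9.71% and 7.06% of all tested genes. The share with Green lower was 13.3% in the range of mean level of the members.

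The parts of the Green and the Red library in the batch 6 median were not tested. Red replicate 6 had the lowest Red value in 29 of the 64 members and the highest in 8. Without it, 30 members were lower and 6 higher in Green, or 46.9% and 9.38%, beside 25.5% and 29.3% of all tested genes (limma, as above) and 38.3% and 9.69% of those in the range of mean level of the members. The 12 members gained as lower were shk-1, shl-1, shw-3, kvs-3, irk-3, twk-12, twk-13, twk-14, twk-30, twk-35, twk-43 and twk-48, the 1 gained as higher was twk-22, and twk-21 was lost. With the batch as a block in the fit, 19 members were lower and 5 higher, as without it, while 22.6% of all tested genes were lower. Without any 1 of Green replicates 3 and 6 and Red replicates 2 and 4, 13 members were lower.

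On chromosome X, 4 of 18 tested members were lower and 2 higher, with a median log2 fold of -0.18, while of all 2101 tested genes on X 33.1% were lower and 11.9% higher. On the autosomes 15 of 46 were lower and 3 higher, with a median of -0.43, while of all 12486 tested autosomal genes 17.9% were lower and 20.3% higher. Among genes in the range of mean level of the members, 33.4% on X and 28.8% on the autosomes were lower. The X-linked members included both extremes, kqt-1 and kqt-2. In 22 members, 20 of them tested, exons shared at least 50 bases with those of another gene, always on the opposite strand and in 2 members on the same strand as well. slo-1, exp-2, unc-58 and unc-103 were among them, with overlapping genes that had no values of their own in the table. Of these 20, limma called 7 lower and 0 higher in Green (9 and 0 at an unadjusted p under 0.05, 8 and 0 in edgeR and DESeq2), with a median log2 fold of -0.30. Of the 44 tested without overlap, 12 were lower and 5 higher, with a median of -0.34.

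Per kilobase of exon, twk-5 had the highest mean over the 12 libraries, 296 normalized counts per kilobase, followed by twk-1 with 247, kvs-5 with 112, twk-29 with 99.8 and kqt-1 with 90.6. twk-1, the second most abundant, had 344, 435 and 460 normalized counts in Green and 275, 417 and 507 in Red, with a log2 fold of 0.06 (95% interval -0.23 to 0.35, adjusted p = 0.73 in limma). kvs-5 had a log2 fold of 0.06 too. The lowest tested gene by this measure was twk-36, with 7.2 normalized counts per kilobase.

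**Figure D4:**
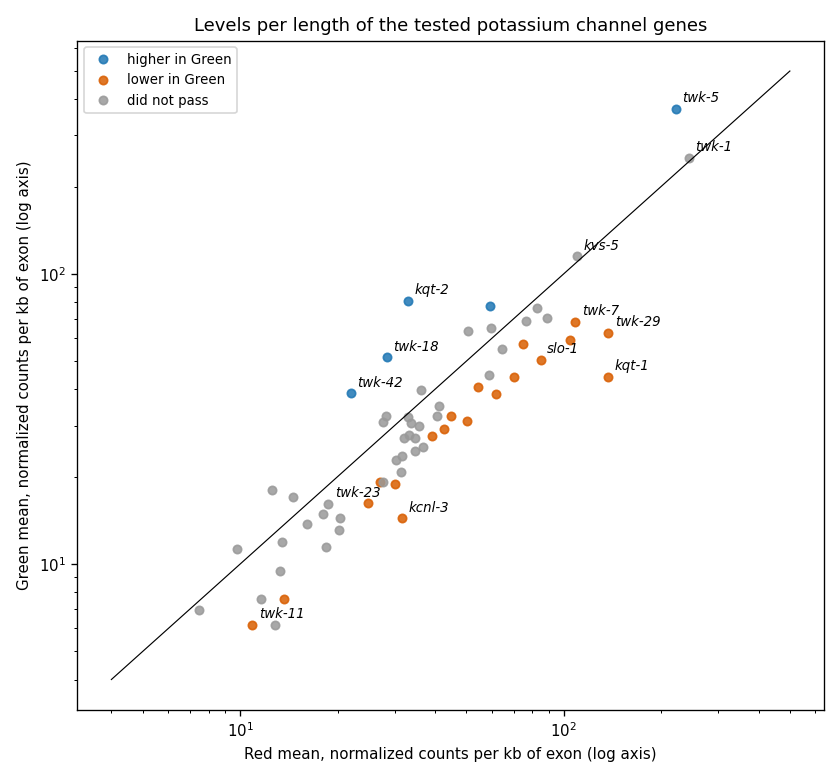
Mean level per kilobase of exon of the 64 tested potassium channel genes in Green (vertical axis) against Red (horizontal axis), both log axes of normalized counts per kilobase, with the line of equal level and colours for the call. twk-5 and twk-1 lie farthest up, kqt-1 lies below the line and kqt-2 above it.

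The other 8 members did not reach a mean of 10 normalized counts and were left out of the test: twk-3, twk-4, twk-6, twk-20, twk-37, twk-44, twk-47 and kvs-2. twk-20 had 0 to 1.18 normalized counts in Green and 1.23 to 6.24 in Red. kvs-2 was at 0 in all 6 Green libraries, which allows a mean of up to 0.488 normalized counts (3 reads over the 6 libraries, counting error only), and had 0 to 3.63 in Red. With no filter on low values, both passed as lower in Green (adjusted p = 0.0066 for twk-20 and 0.032 for kvs-2 in limma), and the other 6 did not. twk-4 shares 69.3% of its exon bases with sym-2 on the same strand, and how reads from the shared bases were assigned is not known.

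Accessory subunits and regulators of potassium channels gave 3 lower and 0 higher genes of 13 tested (15 listed), with a median log2 fold of -0.21. At an unadjusted p under 0.05, in edgeR and in DESeq2 the counts were also 3 and 0. For comparison, limma called 2938 (20.1%) of all 14618 tested genes lower and 2781 higher. mps-2, which encodes an accessory subunit of Kv channels, had 295, 353 and 406 in Green, against 528, 760 and 967 in Red, and a log2 fold of -1.09 (adjusted p = 0.00010 in limma). The groups did not overlap. dys-1, the dystrophin gene, and ctn-1, an alpha-catulin gene, both known for localizing SLO-1 in muscle, had log2 folds of -0.64 and -0.59 (adjusted p = 0.0017 and 0.0014 in limma).

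Of 11 tested calcium and sodium leak channel genes (12 listed), 5 were lower and 0 higher, with a median log2 fold of -0.36. At an unadjusted p under 0.05 these counts were 7 and 0, and in edgeR and DESeq2 5 and 0. Among all 14618 tested genes, limma called 2938 (20.1%) lower and 2781 higher. Among the 6845 in the range of mean level of the potassium channel genes, 29.6% were lower and 8.36% higher. Of the lower genes here, unc-79 and nlf-1 lay in that range, and unc-2, cca-1 and egl-19 above it. unc-2, the presynaptic calcium channel, had 410, 471 and 589 in Green, against 721, 1066 and 1342 in Red, and a log2 fold of -1.14 (adjusted p = 9.09e-05 in limma). No Green library reached the Red range. unc-79, a regulator of the sodium leak channel, had a log2 fold of -0.80 (adjusted p = 0.0051 in limma). cca-1, a T-type calcium channel gene, had one of -0.36, and nlf-1, needed for the sodium leak channel to reach the membrane, one of -0.49 (adjusted p = 0.011 and 0.022 in limma). The remaining lower gene was egl-19, the L-type calcium channel gene, named after its value was seen, with a log2 fold of -0.39 (adjusted p = 0.047 in limma). Its call was lost without any 1 of Green replicates 3, 5 and 6 and Red replicates 1, 2, 4 and 6, without batch 6, with no filter on low values, and under quantile normalization and median centring. nlf-1 did not pass without Green replicate 2 or under either of these scalings, and cca-1 did not pass under median centring.

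**Figure D5:**
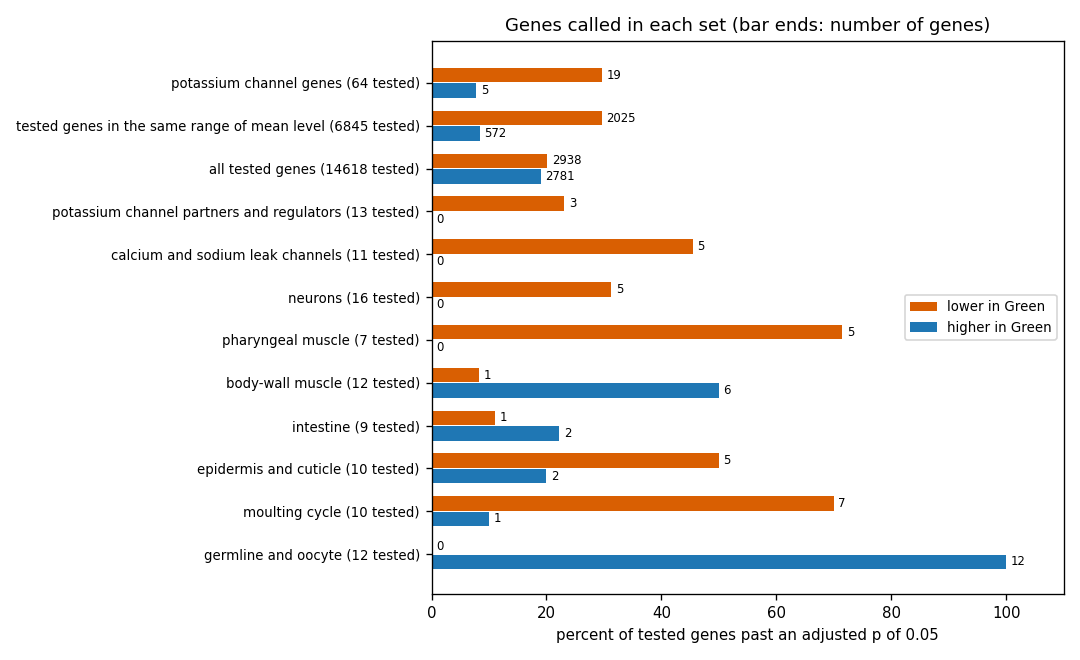
Percent of tested genes called lower and higher in Green (horizontal axis) for the potassium channel genes, the genes of the same range of mean level, all tested genes and the companion and tissue marker lists; bar ends give the number of genes. The potassium channel genes (19 lower, 5 higher of 64) have bars close to those of genes of like level.

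Some marker genes of the tissues in which these channels act were called too. In bulk RNA, fewer cells of a type and less RNA per cell cannot be told apart. Of all 14618 tested genes, limma called 20.1% lower and 19% higher in Green. Of 16 neuron markers, 5 were lower, 0 were higher and 11 did not pass in limma, with a median log2 fold of -0.28. At an unadjusted p under 0.05 and in edgeR and DESeq2, 6 were lower and 0 higher. Their summed level was 17153 to 19316 normalized counts in Green and 19011 to 23961 in Red. The most abundant of them, snb-1 with a mean of 7463, had a log2 fold of 0.03 and did not pass. Of 7 pharyngeal muscle markers, 5 were lower and 0 higher (limma; 6 and 0 at an unadjusted p under 0.05, 5 and 0 in edgeR and DESeq2), with a summed level of 6135 to 7430 in Green and 7498 to 9977 in Red. No gene of either list was at 0 in any library. The part of these lists in the lower levels of slo-1, egl-2, exp-2 or kqt-1 was not tested.

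Marker lists of other tissues gave calls in both directions, beside 20.1% lower and 19% higher among all tested genes in limma. With the batch as a block, 6 neuron markers were lower, 8 body-wall muscle markers were higher, and 3 intestine markers were higher and 3 lower. Of 12 body-wall muscle markers, 6 were higher and 1 lower, with a median log2 fold of 0.37. Their summed level was 43039 to 67072 in Green and 30015 to 49177 in Red. The most abundant of them, unc-54 with a mean of 21278, had a log2 fold of 0.39 and did not pass (adjusted p = 0.062 in limma). The lower one was hlh-1, with a log2 fold of -1.33. Of 9 intestine markers, 2 were higher and 1 lower, with a median log2 fold of -0.13 and 5 of the 9 folds below 0. Their summed level was 52796 to 93910 in Green and 31387 to 60725 in Red. All 12 germline and oocyte markers were higher, with a median log2 fold of 0.46. Moulting genes were lower in 7 of 10, with a median log2 fold of -1.41, and epidermis and cuticle genes were lower in 5 and higher in 2 of 10. The part of the muscle and intestine lists in the higher levels of twk-18 and kqt-2 was not tested.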

How the data were processed

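RNA of whole worms was measured in 12 libraries, 6 Green and 6 Red, made with a stranded mRNA kit per the labels' protocols. The authors deposited 1 table of signal, in which the counts of each library had been divided by its size factor. The submitters' processing notes name FastQC 0.11.8, DESeq2, STAR, Salmon 0.14.2 and MultiQC, with build WBcel235. Multiplied by the recovered factor, 100% of values were whole reads within 0.001; for Red replicate 2 that factor is close to 1, so its check is less decisive. No pair of replicates agreed within sampling noise. The Ensembl annotation (release 115, same build) held all 72 members.

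Green was compared with Red over all 12 libraries with limma 3.58.1 (R 4.3.3; eBayes, trend) on log2(value + 1). Tested were the 14618 genes with a mean of 10 or more, and called were those with a Benjamini-Hochberg adjusted p under 0.05. Alternatives were edgeR 4.0.16 and DESeq2 1.42.0 on recovered reads, robust eBayes, median centring or quantile normalization, a batch block, a pseudocount of 0.5 or 5, a mean of 50 or more, no filter, and fits without a library or without batch 6. The comparison script was tested on simulated data. A batch number of the labels is shared by a Green and a Red library, and this pairs them. Across genes, which are not independent replicates, the partners' deviations from their group means had correlations of 0.108 to 0.366.

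The members, gene lists and tests were chosen with earlier results of these data known. The rule for named genes took every member past the threshold, 17 members with known roles whatever their values, and up to 4 genes of each companion list with the smallest p; library values were given for the first 2 called members of each class and those 17. The values of some further members were added after they were seen. No sequence was used here.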

Additional observations from a re-analysis of the deposited data

Results flagged for a closer look

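Of 128 groups of 6 libraries examined (64 members in Green and in Red), 9 held a library whose gap to the nearest other exceeded the 95% critical value of Dixon for 6 values; chance gives about 5% of groups. Of these 9 values, 4 were in Red replicate 6. twk-14 had 6.288 normalized counts there, against 22.2 in the next Red library, twk-25 had 81.11 against 136.8, and twk-28 had 3.773 against 14.81. twk-22 had its highest Red value there, 133.3 against 73.74. In Green replicate 3, shk-1 had 104.9 normalized counts against 144.0 in the next Green library, and twk-8 had 94.89 against 150.8. shw-3 had 7.301 in Green replicate 4 against 19.98, twk-22 had 70.71 in Green replicate 5 against 86.39, and twk-36 had 4.889 in Green replicate 6 against 11.28. twk-8 and twk-25 were called lower in Green, and the call of twk-8 held without Green replicate 3 while that of twk-25 held without Red replicate 6.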

How the results depend on the processing

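Leaving out 1 library gave 13 to 30 potassium channel genes lower in Green, against 19 with all libraries, while 2441 to 3722 of all tested genes were lower, against 2938, and 1977 to 4287 higher, against 2781. Quantile normalization gave 9 lower potassium channel genes, and median centring gave 2 lower calcium and sodium leak channel genes against 5. Some uncalled log2 folds changed sign. Under quantile normalization those of irk-1, irk-2, slo-2 and twk-23 were 0.0266, 0.1404, 0.0188 and 0.353. Those of kvs-4, shw-1, twk-9, twk-13, twk-17, twk-24, twk-32, twk-36 and twk-49 also moved from below to above 0. Examples without batch 6 were unc-93, twk-1, twk-10 and twk-23, at -0.0598, -0.0725, -0.163 and 0.689. Leaving out 1 library put unc-93 between -0.0461 and 0.190, twk-1 between -0.0427 and 0.133, twk-10 between -0.150 and 0.741, and twk-23 between -0.551 and 0.306. Over the 33 potassium channel genes named by the rule, 10 calls were lost under quantile normalization, 6 under median centring and 3 (kcnl-2, kcnl-4 and twk-21) with no filter on low values. The causes of these moves were not tested. The replicate block left the potassium channel calls at 19 lower and 5 higher, gave 6 lower calcium and sodium leak channel genes against 5, and changed no call among these 33 genes. Neither did pseudocounts of 0.5 and 5, robust eBayes, edgeR or DESeq2. The 8 members under a mean of 10 were left out by that minimum, and 2 of them (twk-20 and kvs-2) were called lower when all 72 were fitted with no filter, which gave 18 lower members.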
